A study of Mus musculus with 4 samples.

Results

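The translation initiation factor genes of primary mouse myoblasts were followed by Ribo-seq, a method that reads the stretches of mRNA shielded by ribosomes (footprints) when the rest is digested. Members were the protein-coding genes whose symbol starts with Eif and a digit from 1 to 6. Eif5a and Eif5a2, which encode eIF5A, and the Eif2ak kinases that phosphorylate eIF2 were left out. This rule, which used no measured value, gave 49 of the 55573 genes in the table. They fell into 7 groups: 5 eIF1 genes, 6 eIF2 genes, 5 eIF2B genes, 14 eIF3 genes, 16 eIF4 genes, 2 eIF5 genes and 1 eIF6 gene. Of the 49 genes, 46 had reads and all 46 passed the minimum mean RPKM (reads per kilobase of gene length, on a common library scale) of 1. The other 3 (Eif3j2, Eif4e1b and Eif4ebp3) had 0 reads in every library.

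The cells were myoblasts, the cultured offspring of muscle stem cells, taken from the hind limbs of mice aged 3 weeks and profiled while proliferating on day 2 with FGF in the medium. The wild type (WT) and the eIF5A knockout label (KO) had 2 libraries each. The KO mice carried Pax7-CreERT2 and floxed eIF5A alleles and had received tamoxifen, so the deletion was limited to cells that expressed Pax7, the stem cell transcription factor, and their progeny. The study describes the controls as WT littermates, as Pax7-CreERT2/+ mice or as Cre-negative floxed mice, depending on the passage, and how many animals gave each library was not given in the sources used here. P-values therefore measure only the spread between these libraries, which may be technical.

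Initiation factors bring the small ribosomal subunit and the initiator tRNA to the start codon of an mRNA. The eIF4 factors find the cap and unwind the mRNA, eIF3 forms the platform on the small subunit, and eIF2 delivers the initiator tRNA. eIF2B recharges eIF2 with GTP, eIF1 and eIF1A keep the scanning ribosome open until a start codon is met, and eIF5, eIF5B and eIF6 act on GTP hydrolysis, subunit joining and the large subunit. eIF5A itself, once named an initiation factor, helps ribosomes through stalling sites such as runs of prolines.

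The targeted gene was read first. Eif5a had an RPKM of 34.9 in WT 1, 65.2 in WT 2, 60.3 in the library labelled KO 1 and 59.4 in the library labelled KO 2. Both libraries labelled KO lay between the WT libraries, and the log2 difference was 0.32 ± 0.48 (SE, limma, adjusted p = 0.839). Eif5a footprints were thus not lower under the KO label, and the KO libraries are named below by their label. Recovered depth was 642429 to 704006 gene reads per library, of which 33.9% to 41.5% (WT) and 59.2% to 65.4% (KO label) fell in protein-coding genes. No pair of libraries agreed within sampling noise (chi-square per degree of freedom 3.61 to 10.2 over protein-coding genes). Members had a median of 203.5 reads over the 4 libraries, and 4 of the 46 had fewer than 40. Bulk libraries cannot separate fewer cells of a type from less RNA per cell, nor fewer mRNA copies from fewer ribosomes per mRNA.

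Most initiation factor genes were somewhat higher in the libraries labelled KO, and no single gene passed the test. The log2 difference (KO label minus WT, on log2(RPKM + 1)) was above 0 in 40 of 46 members and below 0 in 6. It was above 0 in 50.0% of the 11363 genes tested and in 53.1% of the protein-coding genes among them. The members' median was 0.48, beside 0.00026 for all genes tested and 0.049 for protein-coding genes. In 21 members (45.7%) both libraries labelled KO exceeded both WT libraries, compared with 20.1% of all genes tested and 22.4% of protein-coding genes. In 2 members, Eif4ebp2 and Eif3f, both were below both WT libraries, compared with 20.3% of all genes and 19.3% of protein-coding genes. The other 23 members overlapped. At an adjusted p under 0.05, limma called 0 of the 46 members and 0.106% of all genes, and the smallest adjusted p of a member was 0.665. At an unadjusted p under 0.05, 3 members were higher (Eif1b, Eif4e and Eif2b1; 2.86% of all genes) and 1 was lower (Eif4ebp2; 4.46% of all genes). In an exact permutation test 2 libraries against 2 cannot go below p = 0.33.

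The differences depended on single libraries of both groups. The median deviation of a member from its own mean over the libraries was -0.32 in WT 1, -0.094 in WT 2, 0.21 in the library labelled KO 1 and 0.23 in the library labelled KO 2, on the log2 scale. WT 1 was thus the lowest library for the typical member, and the libraries labelled KO were nearly level. Without WT 1 the members' median was 0.34, and 35 of 46 were above 0. Over the 4 ways of leaving out a library, 31 of the 46 members kept their sign and 15 did not (7 without WT 1, 4 without WT 2, 6 without the library labelled KO 1 and 3 without the library labelled KO 2). When reads were scaled to all protein-coding reads instead, the median was 0.38 and 36 of 46 were above 0. With this scaling 16 members were higher and 2 lower without overlap, beside 16.5% and 23.4% of all genes. After the trend with coding GC content and length was taken out of each library, the median was 0.29 with 35 of 46 above 0. Then 18 members were higher and 3 lower without overlap, beside 19.9% and 20.1% of the genes in that fit.

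As a share of protein-coding reads, the members together took 0.862% in WT 1 (95% Wilson interval 0.828 to 0.898), 0.893% in WT 2 (0.854 to 0.933), 1.08% in the library labelled KO 1 (1.05 to 1.11) and 1.09% in the library labelled KO 2 (1.05 to 1.12). The shares of the groups did not overlap for the sum of all members. Intervals cover counting error only, since the reads carry no molecular identifiers. The median log2 difference was 0.85 for eIF1, 0.34 for eIF2, 0.42 for eIF2B, 0.52 for eIF3, 0.27 for eIF4 and 0.46 for eIF5, and eIF6 is a single gene. The eIF2B median was 0.015 without the library labelled KO 2, the eIF3 median was 0.22 without WT 1 and the eIF4 median was 0.12 without WT 2. Without the library labelled KO 1, the eIF2 and eIF5 medians were 0.18 and 0.31. With the GC and length trend taken out, the medians of eIF1, eIF2, eIF2B and eIF5 were 0.41, 0.014, 0.15 and 0.18. The eIF1, eIF3, eIF4 and eIF5 shares were higher in both libraries labelled KO than in both WT libraries, whereas those of eIF2, eIF2B and eIF6 overlapped.

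**Figure D1:**
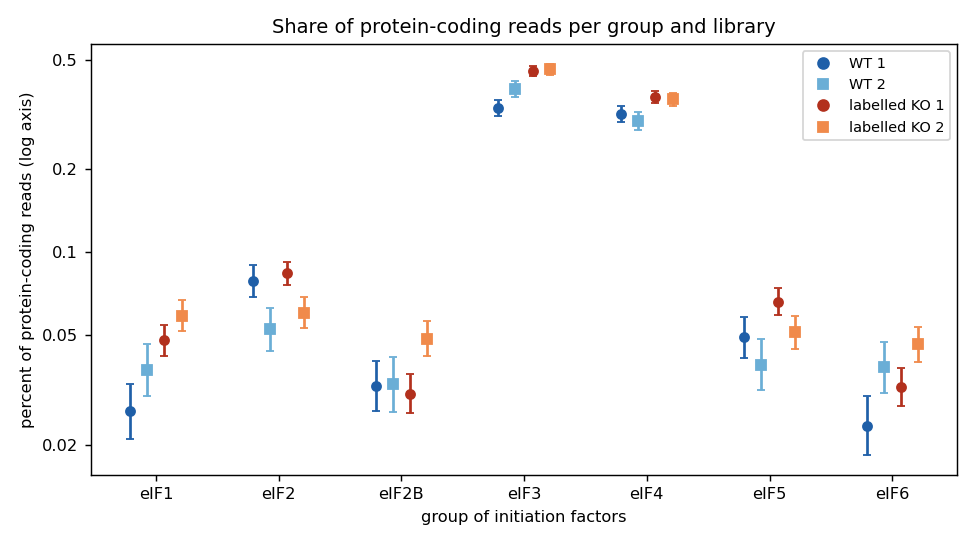
Percent of protein-coding reads (log axis) taken by each group of initiation factor genes in each library, with 95% Wilson intervals for counting error. Points are single libraries; the eIF3 and eIF4 genes hold most of the reads, and all members together run from 0.862% in WT 1 to 1.09% in the library labelled KO 2.

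**Figure D2:**
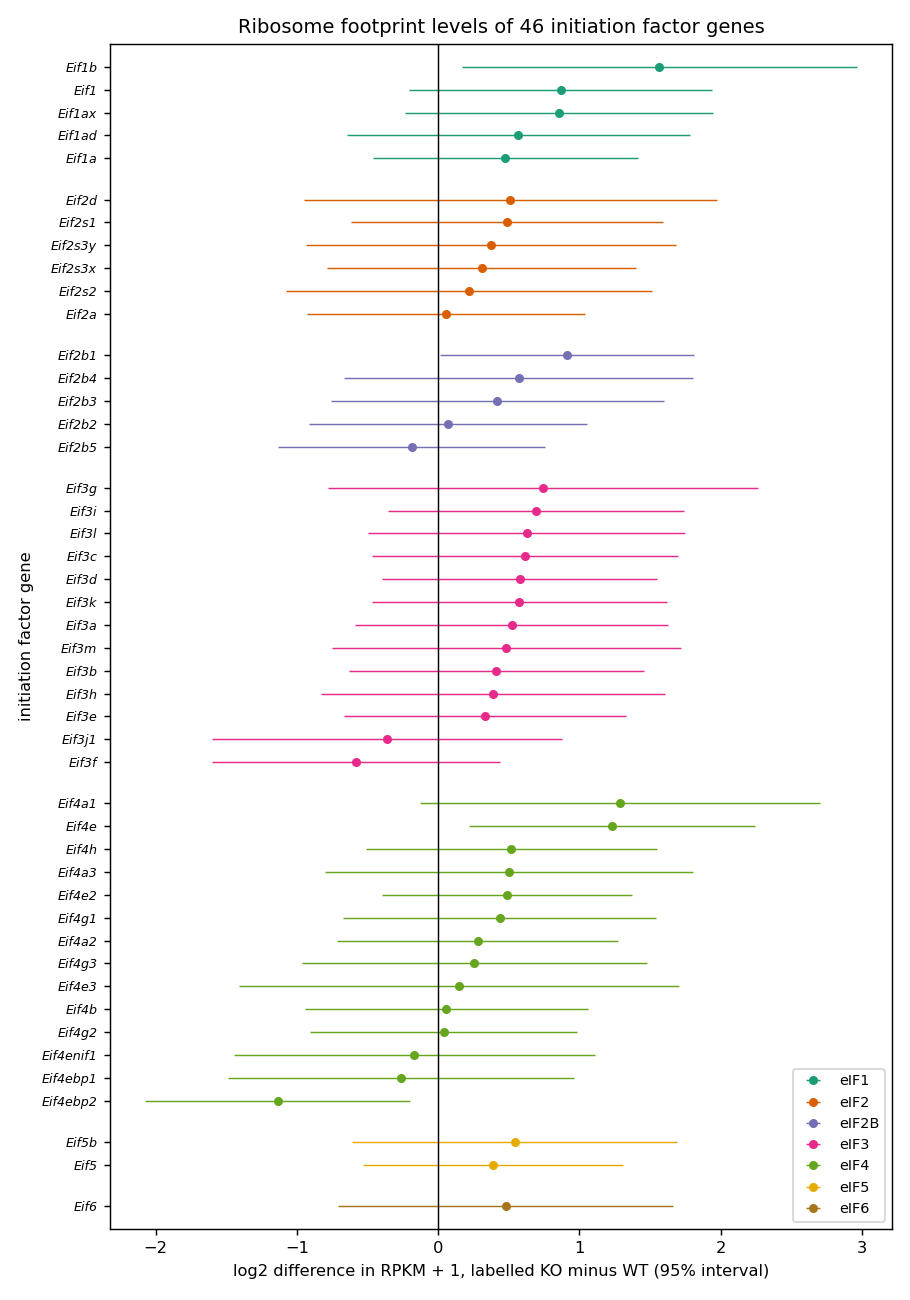
Log2 difference in RPKM + 1 (KO label minus WT) for the 46 members with reads, grouped by factor, with 95% intervals from limma. Points right of 0 are higher in the libraries labelled KO (40 of 46), and most intervals cross 0.

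The cap-binding complex eIF4F joins the cap-binding protein eIF4E, a scaffold (eIF4G) and an RNA helicase (eIF4A). Eif4e (chr3:138526179-138559696, + strand, GRCm38) had the lowest p of the members. Its RPKM was 4.69 in WT 1, 8.13 in WT 2, 16.0 in the library labelled KO 1 and 15.9 in the library labelled KO 2, from 17, 23, 87 and 77 reads. Both libraries labelled KO were above both WT libraries and nearly equal, and the log2 difference was 1.23 ± 0.41 (SE, limma, adjusted p = 0.665). The other cap-binding genes were lower by RPKM. Eif4e2, a cap-binding relative that represses translation, had RPKM values of 3.32 and 4.25 (WT) and 5.74 and 5.61 (KO label), also without overlap, and a log2 difference of 0.49. Eif4e3 had 9 reads in all, and Eif4e1b, the oocyte form, had none, which allows up to 3 reads per library.

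The scaffold genes differed less. Eif4g1 had an RPKM of 44.1 in WT 1, 29.4 in WT 2, 56.9 in the library labelled KO 1 and 42.2 in the library labelled KO 2, so that WT 1 lay above the library labelled KO 2. Its log2 difference was 0.44 ± 0.45 (SE, limma, adjusted p = 0.757), or 0.15 without WT 2 and 0.22 without the library labelled KO 1. Eif4g3 gave 0.26 and Eif4g2, a scaffold that does not bind eIF4E, gave 0.038, both with overlapping groups. Without WT 2 Eif4g3 was at -0.34, and without the library labelled KO 1 Eif4g2 was at -0.091.

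The helicase genes Eif4a1 and Eif4a2 encode closely related proteins. Eif4a1 had an RPKM of 11.1 in WT 1, 31.8 in WT 2, 50.9 in the library labelled KO 1 and 44.6 in the library labelled KO 2. Both libraries labelled KO were above WT, but WT 1 stood well below WT 2, and the log2 difference of 1.29 ± 0.58 (SE, limma, adjusted p = 0.676) was 0.57 without WT 1 and 2.01 without WT 2. Eif4a2 had an RPKM of 17.7, 12.3, 16.5 and 19.9, with overlapping groups and a log2 difference of 0.28, or 0.034 without WT 2 and 0.15 without the library labelled KO 2. With the trend with coding GC content and length taken out, the Eif4a2 difference was -0.062. The ratio of Eif4a1 to Eif4a2 reads was 0.509 in WT 1 (95% exact interval 0.314 to 0.809), 2.10 in WT 2 (1.35 to 3.33), 2.50 in the library labelled KO 1 (1.92 to 3.28) and 1.81 in the library labelled KO 2 (1.39 to 2.39). WT 1 was the only library with fewer Eif4a1 than Eif4a2 reads, and the other 3 overlapped in their intervals. None of the 1191 windows of 28 bases in the Eif4a1 coding sequence recurred in that of Eif4a2, so fragments of about footprint length separate the pair. Each gene hosts a snoRNA gene on its own strand, and these had 252 and 171 reads of their own over the 4 libraries. How reads shared by overlapping genes were assigned was not given in the sources used here.

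The cofactors of the helicase are eIF4B and eIF4H. Eif4b had an RPKM of 46.8, 47.0, 47.1 and 50.7, a difference of 0.059 on the log2 scale that was -0.055 when scaled to protein-coding reads. Eif4h had an RPKM of 33.2, 41.3, 58.2 and 49.1 without overlap and a log2 difference of 0.52 ± 0.42 (SE, limma, adjusted p = 0.721). Eif4a3, a helicase of the exon junction complex, overlapped between groups and gave 0.50, or -0.11 without WT 1.

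The 4E-binding proteins hold eIF4E away from eIF4G when mTOR signalling is low. Eif4ebp2 (chr10:61428491-61452661, - strand) was the member with the lowest log2 difference. It had an RPKM of 10.9 in WT 1, 8.81 in WT 2, 3.24 in the library labelled KO 1 and 4.71 in the library labelled KO 2, from 38, 24, 17 and 22 reads. Both libraries labelled KO were below both WT libraries, by a log2 difference of -1.13 ± 0.38 (SE, limma, adjusted p = 0.665). Eif4ebp1 had an RPKM of 23.4, 22.2, 12.6 and 28.2. Its WT libraries lay between the libraries labelled KO, and the log2 difference of -0.26 was 0.29 without the library labelled KO 1. Eif4enif1, which carries eIF4E into the nucleus, overlapped and gave -0.17, or 0.48 without WT 1.

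Within each library the balance of Eif4ebp2 to Eif4e does not depend on the scaling. The ratio of their reads was 2.24 in WT 1 (95% exact interval 1.23 to 4.22), 1.04 in WT 2 (0.564 to 1.93), 0.195 in the library labelled KO 1 (0.109 to 0.331) and 0.286 in the library labelled KO 2 (0.169 to 0.464). Both libraries labelled KO were below both WT libraries, and their intervals did not reach those of WT. The pair was formed because its members had the lowest p-values, so this ratio is a description and no test was made of it. With Eif4ebp1 added to the numerator, the ratio was 4.06, 2.04, 0.483 and 0.935 in the same order. That of Eif4ebp1 alone was 1.82, 1.00, 0.287 and 0.649, and the interval in the library labelled KO 2 (0.446 to 0.939) overlapped that of WT 2 (0.536 to 1.87) and not that of WT 1 (0.979 to 3.51).

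**Figure D3:**
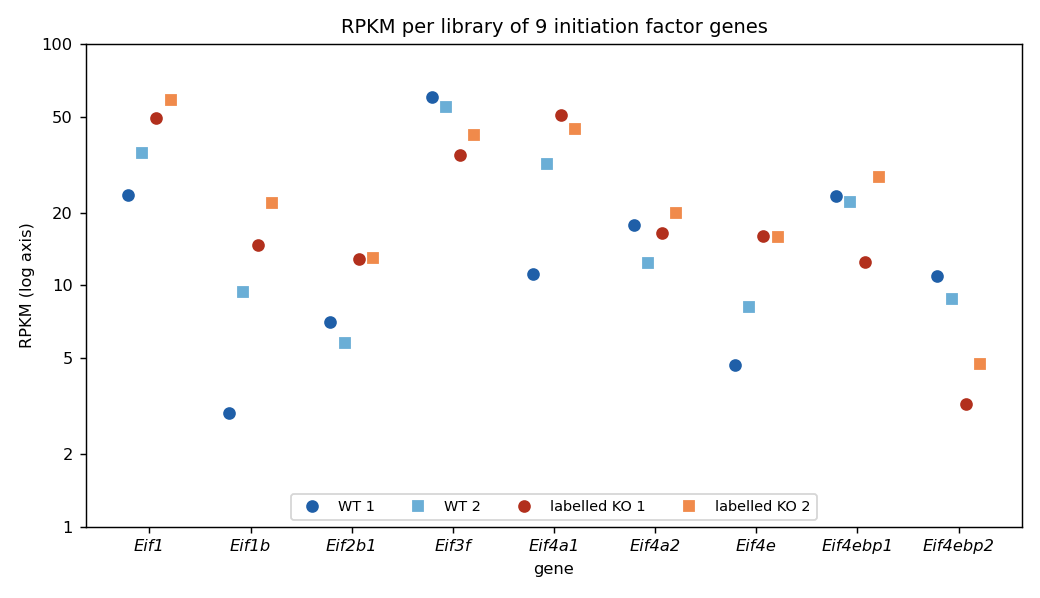
RPKM (log axis) of 9 initiation factor genes in each library, 1 point per library. Eif4e, Eif1, Eif1b, Eif2b1 and Eif4a1 are higher in both libraries labelled KO, Eif4ebp2 and Eif3f are lower in both, and Eif4a2 and Eif4ebp1 overlap.

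**Figure D4:**
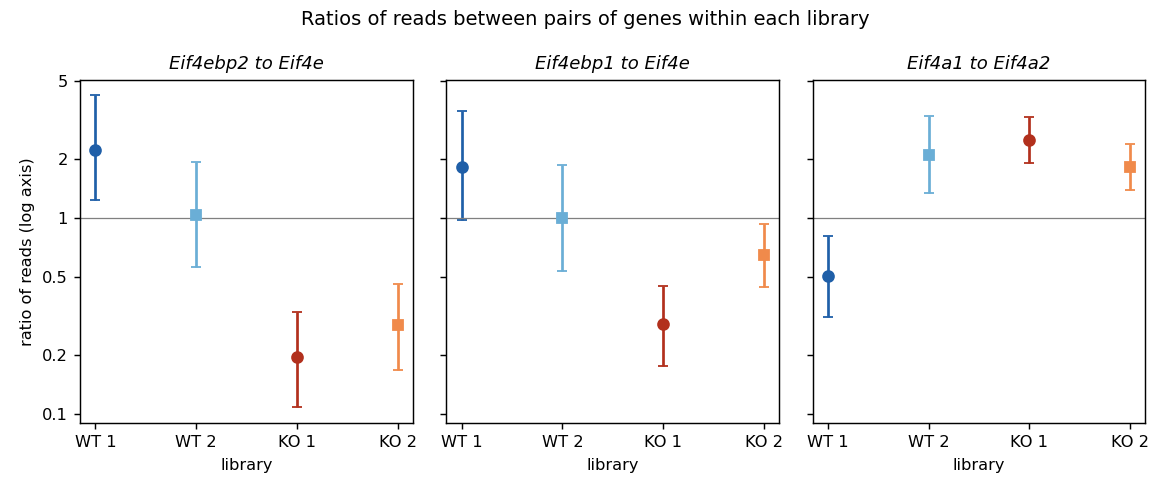
Ratios of reads (log axis) within each library for Eif4ebp2 to Eif4e, Eif4ebp1 to Eif4e and Eif4a1 to Eif4a2, with 95% exact intervals for counting error and a grey line at 1. Eif4ebp2 to Eif4e runs from 2.24 in WT 1 to 0.195 in the library labelled KO 1.

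The factors that guard start codon choice made the group with the largest median difference. Eif1, whose product keeps the scanning ribosome from stopping at poor start codons, had an RPKM of 23.7 in WT 1, 35.4 in WT 2, 49.4 in the library labelled KO 1 and 58.4 in the library labelled KO 2. Its groups did not overlap and the log2 difference was 0.87 ± 0.44 (SE, limma, adjusted p = 0.676). Its paralog Eif1b (chr9:120492232-120495330, + strand) had an RPKM of 2.95, 9.43, 14.7 and 22.0 from 2, 5, 15 and 20 reads. The groups again did not overlap, but the WT values rest on 7 reads, and the log2 difference of 1.57 ± 0.57 (SE, limma, adjusted p = 0.672) was 0.87 without WT 1. Eif1 and Eif1b have coding sequences of 339 bases that are identical at 81.1% of positions, and no window of 28 bases is shared. The ratio of Eif1b to Eif1 reads was 0.0667, 0.143, 0.160 and 0.202, and the intervals of all 4 libraries overlapped.

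Eif1a and Eif1ax both encode eIF1A, the partner of eIF1 in scanning. Eif1a had an RPKM of 7.96, 7.64, 13.2 and 9.51 and Eif1ax had 4.73, 9.27, 11.5 and 14.3. In both genes the libraries labelled KO were above WT. The log2 difference of Eif1a was 0.47, or 0.26 without the library labelled KO 1, and that of Eif1ax was 0.85, or 0.43 without WT 1. After the trend with coding GC content and length was taken out, Eif1 was at 0.44, Eif1a at 0.030 and Eif1ax at 0.41. Eif1ad, named for an eIF1A-like domain, had 27 reads in all and overlapped.

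eIF1 is known for limiting its own synthesis, because its start codon lies in a poor context that eIF1 makes ribosomes pass by, while eIF5 lowers the stringency. The bases around the start codons are therefore shown for these genes and for members with the lowest p-values. They run from 6 bases before the start codon to the base after it, as in the GENCODE vM21 annotation of GRCm38, with the start codon in capitals. A purine 3 bases before the start codon and a G just after it are the favoured letters.

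Eif1 (chr11:100320124-100320133, + strand): tatcgtATGt
Eif1b (chr9:120492805-120492814, + strand): tgtcgcATGt
Eif5 (chr12:111539610-111539619, + strand): gccaaaATGt
Eif4e (chr3:138527291-138527300, + strand): tctaagATGg
Eif2b1 (chr5:124579010-124579019, - strand): gaagccATGg
Eif4ebp2 (chr10:61452543-61452552, - strand): ggagccATGt

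Neither favoured letter is present in Eif1 or Eif1b, both are present in Eif4e and Eif2b1, and Eif5 and Eif4ebp2 have the purine only. Of the 48 members with an annotated ATG context, 4 (8.33%) had neither letter, and 41.7% had both. Among 20353 protein-coding genes the shares were 7.31% and 41.6%. The ratio of Eif1 to Eif5 reads was 0.667 in WT 1, 0.875 in WT 2, 1.04 in the library labelled KO 1 and 1.08 in the library labelled KO 2. The intervals of all 4 overlapped, from 0.406 to 1.08 in WT 1 and from 0.802 to 1.45 in the library labelled KO 2. Eif5 itself, the GTPase activator of eIF2, had an RPKM of 10.9, 12.5, 14.6 and 16.7 without overlap and a log2 difference of 0.39 ± 0.37 (SE, limma, adjusted p = 0.737).

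The eIF2 trimer, which carries the initiator tRNA, had 1 of 4 genes higher without overlap, near the 20.1% of all genes tested. Eif2s2, the beta subunit and the highest of the group, had an RPKM of 37.1 in WT 1, 18.2 in WT 2, 39.5 in the library labelled KO 1 and 23.5 in the library labelled KO 2. Its groups overlapped and the spread within each was larger than the log2 difference of 0.22 ± 0.53 (SE, limma, adjusted p = 0.906), which was -0.27 without WT 2. Eif2s1, the alpha subunit whose phosphorylation marks the integrated stress response, had an RPKM of 4.69, 9.86, 10.0 and 10.0, with WT 2 just under the libraries labelled KO. Eif2s3x, the gamma subunit, had 9.14, 8.91, 15.9 and 8.12, with overlap. Its Y-linked copy Eif2s3y had an RPKM of 3.59, 1.02, 2.91 and 2.98 from 9, 2, 11 and 10 reads, so all 4 libraries held Y-linked footprints. The groups overlapped, and the log2 difference of 0.37 was -0.22 without WT 2. The ratio of Eif2s3y to Eif2s3x reads was 0.429, 0.125, 0.200 and 0.400 with overlapping intervals. The pair shares 0.504% of windows of 28 bases. Eif2a and Eif2d encode alternative initiator tRNA carriers outside the trimer, with 62 and 30 reads in all and log2 differences of 0.054 and 0.51. Eif2a was at -0.23 without WT 1 and Eif2d at 0.22 without WT 2.

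The exchange factor eIF2B was represented by all 5 of its subunit genes. Eif2b1, the alpha subunit, had an RPKM of 7.07 in WT 1, 5.76 in WT 2, 12.8 in the library labelled KO 1 and 13.0 in the library labelled KO 2, from 11, 7, 30 and 27 reads. The libraries labelled KO were above WT by a log2 difference of 0.91 ± 0.37 (SE, limma, adjusted p = 0.672). Eif2b2, the most abundant by mean RPKM, had 22.0, 19.1, 18.7 and 24.96 with a log2 difference of 0.072, or -0.13 without the library labelled KO 2. Eif2b5, the catalytic epsilon subunit, had 16.6, 13.1, 11.9 and 13.8 and a difference of -0.19, or -0.026 without WT 1 and -0.35 without WT 2. Eif2b3 and Eif2b4 gave 0.42 and 0.57 with overlap, and were at -0.017 without WT 1 and at 0.015 without the library labelled KO 2, respectively. So 1 of the 5 subunits was higher without overlap, a share close to the 20.1% of all genes tested.

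eIF3 is the largest factor, and 13 of its 14 genes had reads. Of the 13, 8 were higher in both libraries labelled KO (a, b, c, d, e, i, k and l), 1 was lower (f) and 4 overlapped (g, h, j1 and m), beside 20.1% higher and 20.3% lower without overlap among all genes tested. Eif3f (chr7:108934417-108942951, + strand), a deubiquitinase-like core subunit known as a regulator of muscle mass, had an RPKM of 60.2 in WT 1, 55.1 in WT 2, 34.7 in the library labelled KO 1 and 42.0 in the library labelled KO 2. It was the only core subunit whose libraries labelled KO lay below WT, with a log2 difference of -0.58 ± 0.41 (SE, limma, adjusted p = 0.706). The other 7 subunits of its structural core (a, c, e, h, k, l and m) had differences from 0.33 to 0.63. Of these, Eif3e was at 0.0097, Eif3m at -0.023, Eif3l at 0.22 and Eif3k at 0.29 without WT 1. Eif3a was at 0.29 without WT 2 and at 0.28 without the library labelled KO 1, and Eif3h was at -0.040 without the library labelled KO 2. Eif3g, an RNA-binding subunit and the highest of all members by mean RPKM over the 4 libraries, had 51.0, 139, 123 and 164. WT 2 lay above the library labelled KO 1, and the log2 difference of 0.74 ± 0.62 (SE, limma, adjusted p = 0.723) was 0.030 without WT 1. Eif3j1, a loosely bound subunit, had 5.12, 2.91, 4.35 and 1.70 with overlap and a difference of -0.37, which was 0.13 without the library labelled KO 2. Its copy Eif3j2 had no reads.

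Levels within eIF3 were compared as reads per kilobase of coding sequence per 1000000 protein-coding reads, because the deposited gene lengths include untranslated sequence and were 1.21 to 16.1 times the coding length of members (median 3.53). By the mean over the 4 libraries the order was Eif3g 518, Eif3k 281, Eif3f 274, Eif3a 230, Eif3c 223, Eif3b 208, Eif3i 188, Eif3h 168, Eif3m 135, Eif3l 133, Eif3e 109, Eif3d 104 and Eif3j1 55.7. Eif3g ran from 236 to 711 and overlapped the ranges of Eif3k (193 to 334) and Eif3f (183 to 360). Each neighbouring pair in this order had overlapping ranges. The highest mean was 9.29 times the lowest on this scale and 33.9 times by RPKM, and 5.00 times without Eif3j1. The orders by coding length and by RPKM had a Spearman rho of 0.77 over 13 genes, and those of single libraries had a rho of 0.736 to 0.901 with each other. Across all members the highest mean level by coding length was 774, for Eif4h.

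**Figure D5:**
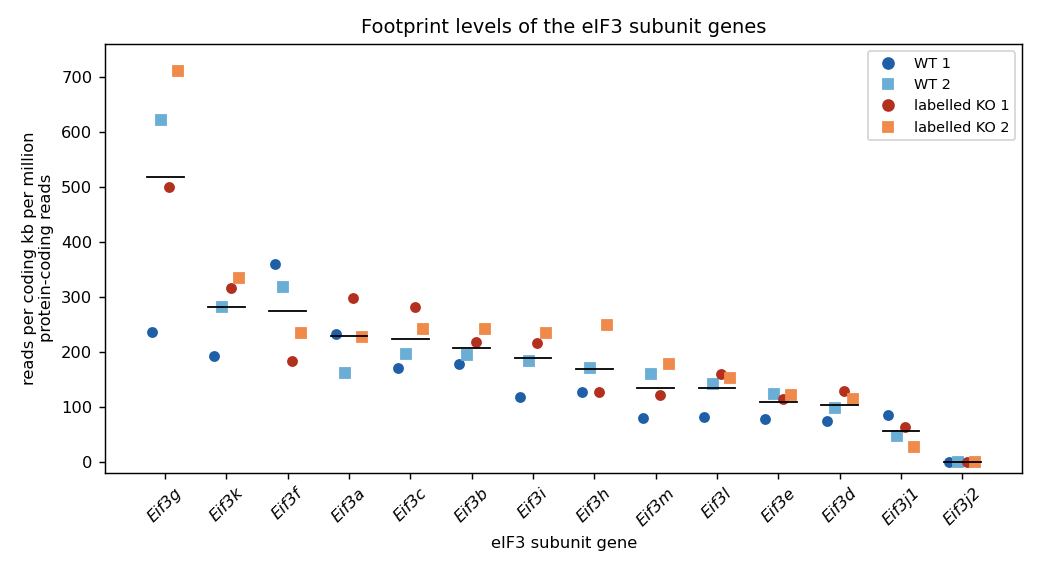
Reads per kilobase of coding sequence per 1000000 protein-coding reads for the 14 eIF3 genes in each library, ordered by the mean over libraries (black line). Eif3g has the highest mean (518) and the widest range, Eif3f is the gene with both WT libraries above both libraries labelled KO among the top subunits, and Eif3j2 is at 0.

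Among the late factors, Eif5b, the GTPase that joins the subunits, had an RPKM of 14.8 in WT 1, 9.79 in WT 2, 24.2 in the library labelled KO 1 and 13.3 in the library labelled KO 2, with overlap and a log2 difference of 0.54 ± 0.47 (SE, limma, adjusted p = 0.729). The difference was 0.13 without the library labelled KO 1 and 0.27 without WT 2, and it was 0.31 with the GC and length trend taken out. Eif6, which keeps free large subunits from joining, had 38.7, 65.2, 60.8 and 81.6. WT 2 lay above the library labelled KO 1, and the log2 difference of 0.48 was 0.11 without WT 1.

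Because eIF5A acts on proline runs, the members' own coding sequences were searched for at least 3 proline codons (CCN) in a row, on the coding strand and in frame. Such a run was present in 10 of the 46 members (21.7%) and in 25.3% of the protein-coding genes tested. The runs of Eif4e, the member with the lowest p, and of Eif2b5 are shown as examples with 6 coding bases on each side (GENCODE vM21, GRCm38), with the proline codons in capitals.

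Eif2b5, codons 35 to 38 of 717 (chr16:20499010-20499033, + strand): gaggagCCGCCGCCGCCCctccag
Eif4e, codons 14 to 16 of 217 (chr3:138546336-138546356, + strand): actaatCCCCCACCTgcagaa

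The 10 members with a run had a median log2 difference of 0.41, and 9 of them were above 0, with Eif2b5 below 0. The 36 without had a median of 0.48, and 31 were above 0. Over the protein-coding genes tested, the medians were -0.13 with a run and 0.12 without. These 2 sets also differed in median coding GC content, at 55.4% with a run and 52.5% without. Over the 46 members, the log2 difference had a Spearman rho of -0.45 with the percent of proline codons and -0.083 with coding GC content. Over 9869 protein-coding genes these were -0.25 and -0.36. The difference between WT 1 and WT 2 had a rho of 0.37 with the percent of proline codons over the same 46 members. That between the libraries labelled KO 1 and KO 2 had a rho of -0.054. The WT libraries thus also differed along the percent of proline codons, and the libraries labelled KO hardly did. These correlations are across genes that share the same 4 libraries and are given as descriptions.

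Genes of neighbouring steps of translation were counted in the same way, where 20.1% of all genes tested were higher and 20.3% lower without overlap. Among 9 tested eIF2 kinase and stress regulator genes, 4 were above 0, with a median of -0.089, and 1 was higher and 3 lower without overlap. Among 17 tested partners of initiation, such as poly(A)-binding proteins and mTOR components, 10 were above 0 with a median of 0.17, and 4 were higher and 4 lower without overlap. Among 10 elongation and termination factors, 7 were above 0 with a median of 0.29, and 4 were higher and 1 lower without overlap. Among 77 tested cytosolic ribosomal protein genes, 35 were above 0 with a median of -0.059, and 9 were higher and 19 lower without overlap. limma called 0 genes in each of these lists at an adjusted p under 0.05. At an unadjusted p under 0.05 it gave 2, both lower ribosomal protein genes, where 4.46% of all genes tested were lower at this threshold. Differences between these lists and the initiation factors were not tested.

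Cell type markers were counted as well. At an adjusted p under 0.05, limma called 0 of them, and the smallest adjusted p was 0.629. All 8 myoblast markers had log2 differences below 0, 5 of them without overlap (20.3% of all genes tested), and their summed RPKM was 245 in WT 1, 185 in WT 2, 102 in the library labelled KO 1 and 120 in the library labelled KO 2. Myf5 had 8, 4, 2 and 0 reads, and Pax7 and Myod1 had reads in every library. Fibroblast markers were above 0 in 7 of 8 genes, 4 of them without overlap (20.1% of all genes tested). Their summed RPKM was 462 and 268 (WT) and 825 and 358 (KO label), so that WT 1 lay above the library labelled KO 2. The defining genes Pdgfra and Dcn were present in all 4 libraries. All 5 endothelial markers were above 0, 4 without overlap, with sums of 106 and 99.8 (WT) and 139 and 112 (KO label). Immune markers summed to 34.3 and 47.7 (WT) and 52.7 and 43.9 (KO label), with overlap. Of the 3 tested, Adgre1 and Cd14 were higher and Cd68 was lower without overlap (20.1% and 20.3% of all genes tested). Adgre1, Cd14 and Cd68 had reads in every library, and Ptprc was at 0 in WT 2 and in the library labelled KO 2. Myoblast markers thus stood beside fibroblast, endothelial and immune ones in every library. The part of these markers in the initiation factor differences was not tested.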

How the data were processed

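Ribo-seq libraries of primary mouse myoblasts (2 WT, 2 labelled KO, grouped by their labels) were analysed. The authors stopped elongation with cycloheximide, digested with RNase I, removed rRNA and tRNA reads, aligned with TopHat2 and counted with HTSeq on Ensembl models of mm10; strand and multi-mapping settings are not given in the sources used here. The deposited values were RPKM. RPKM times gene length divided by the smallest non-zero product gave whole reads for 100.0% of non-zero values (tolerance 0.01). The implied denominators equalled median-of-ratios size factors (0.912, 0.713, 1.37 and 1.22) times the geometric mean total, so a shift common to the majority of genes is removed. Depth was 648386, 642429, 704006 and 650210 reads.

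limma 3.58.1 (trend, R 4.3.3, two-sided, Benjamini-Hochberg over 11363 genes with mean RPKM of at least 1) was run on log2(RPKM + 1), which understates changes of low genes. Reads simulated with a single set spread for all genes were also fitted, which does not show how limma performs at the spread of these libraries. Read ratios carry 95% exact intervals and shares Wilson intervals. A count of 0 allows 3 reads. Coding sequences came from GENCODE vM21, which held 99.7% of the genes. The sequence of 1 proline run is not reported here. Full values were given for members with an unadjusted p under 0.05, the highest of each group, the 3 largest changes each way with 40 reads or more, paralogs, 4E-binding proteins and Eif5a; other members named in the text were chosen after their values were seen. Members and lists were chosen with earlier results of these data known. Alternatives were other pseudocounts, filters, scaling, gene sets, variance priors, voom on recovered reads, GC and length correction, a replicate block and leaving out each library.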

Additional observations from a re-analysis of the deposited data

How the results depend on the processing

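No member passed an adjusted p under 0.05 in limma under any alternative, voom on recovered reads included; at an unadjusted p under 0.05 the count was 4 (8.70% of members; 7.32% of all genes), and 0 to 10 elsewhere (0 without either library labelled KO, beside 3.78% and 5.17% of all genes, and 10 without WT 2, beside 14.1%). Over all genes, the 12 adjusted calls became 0 in most alternatives, 3 with GC, length and the replicate block together, 14 when scaled to protein-coding reads and 79 with voom. The cause was not tested. Same-numbered libraries deviated together only weakly (r = 0.057 over all genes tested; 0.24 over the 46 members), and with 2 pairs and no label of a shared batch the numbers were not taken as pairs. With the replicate block the members' median stayed at 0.48 and 3 members (6.52%) had an unadjusted p under 0.05, beside 7.28% of all genes.

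Once the trend with coding GC and length was taken out (the replicate block left these values as they were), the median was 0.29 for all members, 0.41 for eIF1, 0.014 for eIF2, 0.18 for eIF4 and 0.18 for eIF5, and Eif2s2 (-0.16), Eif2s3x (-0.0033), Eif4a2 (-0.062) and Eif4ebp1 (0.022) changed sign. The eIF4 median was 0.30 with a pseudocount of 0.1 and 0.18 when scaled to protein-coding reads, where Eif2b2 (-0.039) and Eif4b (-0.055) changed sign. The summed eIF4 level differed by 0.20 per coding kilobase and 0.24 when its summed RPKM was rescaled to protein-coding reads. The eIF3 order by coding length had a rho of 0.77 with that by RPKM.

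Leaving out each library in turn gave medians of 0.34 to 0.52 for all members, 0.59 to 1.15 for eIF1, 0.18 to 0.52 for eIF2, 0.015 to 0.75 for eIF2B, 0.22 to 0.74 for eIF3, 0.12 to 0.36 for eIF4 and 0.31 to 0.62 for eIF5. With 3 libraries to separate instead of 4, 27 to 31 members were higher without overlap (31.7% to 35.9% of all genes) and 4 to 7 lower (30.4% to 39.4% of all genes), and the summed eIF2 level differed by -0.0065 to 0.55. Of the 46 members, 15 changed sign in at least 1 of these fits, 12 of them above 0 with all libraries. Among the genes given with full values, the sign changed for the targeted gene Eif5a (-0.12 to 0.76), Eif2b2 (-0.13 to 0.27), Eif2s2 (-0.27 to 0.71), Eif2s3x (-0.14 to 0.75), Eif2s3y (-0.22 to 0.97), Eif4ebp1 (-0.81 to 0.29) and Eif3j1 (-0.86 to 0.13). With 2 libraries per group and 203.5 reads at the median member, depth and spread limit what single genes can show.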
